A study of Rattus norvegicus with 18 samples.

Results

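The left soleus of rats with reduced renal mass was compared with the left soleus of sham-operated rats, in 9 of the 18 arrays of a study on limb ischaemia in chronic kidney disease. The nephrectomised group (SNX) held 5 male rats, numbered 12, 18, 20, 37 and 49, in which 5/6 nephrectomy had been performed, an operation that removes most of the kidney tissue. The sham group held 4 male rats, numbered 11, 13, 15 and 17. In all 9 rats the femoral artery of the right hindlimb had been ligated and resected 8 weeks after the kidney operation, and muscle was taken 24 hours after that. The left limb was not ligated, but its muscle came from animals that had undergone limb surgery on the other side. Arrays were chosen by the operation named in their titles and the letter L for the left limb, and each rat gave 1 left array. The source field of the labels calls both limbs of every SNX rat ischaemic and both limbs of every sham rat nonischaemic, which conflicts with the design text, so groups are named here by operation and side. The labels give no strain, age, time of day or array batch, and do not say what the rat numbers stand for.

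The soleus is a postural muscle of the lower hindlimb, in which slow-twitch fibres predominate. Between the fibres lie a basement membrane, an interstitial matrix made by fibroblasts, capillaries, nerve branches with Schwann cells, and scattered macrophages and fat cells. Chronic kidney disease is known to waste muscle: protein breakdown through the ubiquitin-proteasome system rises, signalling by insulin and insulin-like growth factor weakens, and fibrosis and loss of capillaries have been described in uraemic muscle. The unligated limb shows muscle in these animals without a local arterial ligation.

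Levels are log2 values as deposited, so a difference of 1 is a doubling of the array signal, and levels of different probe sets cannot be set against each other. The left arrays resembled each other closely, with array medians that lay within the range of 3.23 to 3.38 found over all 18 arrays. The slow myosin gene Myh7 had levels of 14.32 to 15.73 in SNX arrays and 13.59 to 15.55 in sham arrays, near the top of the scale, which reached 15.9. The fast myosin gene Myh4 was also near the top, at 15.32 to 15.66 in SNX arrays and 14.80 to 15.58 in sham arrays. Contractile genes of both fibre types were thus strongly detected, although slow-twitch fibres predominate in soleus. Means of the 15 fast-fibre genes were 14.74 to 15.01 in SNX arrays and 14.78 to 14.94 in sham arrays. Whether the samples held other muscle was not tested. The means of the 13 slow-fibre genes varied widely between rats of 1 group, from 12.18 to 13.74 in SNX arrays and from 11.15 (rat 17) to 13.61 (rat 13) in sham arrays. As a measure of RNA quality, the 3′ minus 5′ difference of the beta-actin control probe sets was 1.46 to 1.87 in SNX arrays and 1.71 to 2.07 in sham arrays. These ranges overlapped, but the mean was higher in sham arrays (1.90 ± 0.16) than in SNX arrays (1.67 ± 0.18, SD). For the GAPDH control the means were 0.33 ± 0.13 in SNX arrays and 0.36 ± 0.06 in sham arrays. The part of RNA quality in the differences below was not tested.

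Reck and Gpc6 fell in SNX muscle and were the genes, of 14217 represented by 1 probe set each, that passed an adjusted p of 0.05 (0.0141% of genes, and 0.00644% of the 31042 probe sets tested). Both encode proteins of the cell surface. Reck is a membrane-anchored inhibitor of matrix metalloproteinases, and Gpc6 is glypican-6, a heparan sulfate proteoglycan held to the membrane by a lipid anchor. No gene passed with a higher level in SNX rats.

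Reck levels were 6.39, 6.28, 6.50, 6.41 and 6.05 in SNX arrays 12, 18, 20, 37 and 49, against 7.32, 7.79, 7.49 and 7.71 in sham arrays 11, 13, 15 and 17. All 5 SNX values lay below all 4 sham values, with a gap wider than the range within either group. The means were 6.33 ± 0.17 in SNX rats and 7.58 ± 0.21 in sham rats (SD, n = 5 and 4), a log2 difference of -1.25 ± 0.17 (SE) or a 2.38-fold lower signal (limma, adjusted p = 0.0434). Gpc6 levels were 4.75, 4.74, 4.99, 4.90 and 4.71 in the same SNX arrays, against 5.54, 6.17, 5.71 and 6.23 in the sham arrays. Again the groups were separate, and the SNX rats were closely grouped while the sham rats were spread. The log2 difference was -1.09 ± 0.15, a 2.13-fold lower signal (limma, adjusted p = 0.0434). Among 3 further probe sets annotated to Gpc6, all dim, 1 had a difference of -0.58 ± 0.19 and the others were at 0.00, while Reck had a single probe set. Because whole muscle was measured, fewer cells of a type and less RNA per cell cannot be told apart for these or any genes below. Both calls were lost (adjusted p 0.105 for Reck and 0.130 for Gpc6) when the 9 left arrays were fitted alone. They were also lost when any array other than those of SNX rat 20 and sham rat 11 was left out, with differences of at least 0.99 in size throughout.

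The stretch upstream of Reck is shown as that of a gene that passed the test, and the sequence table used held none for Gpc6. It is the RefSeq sequence of rat assembly GRCr8 at chr5:62898467-62898716, plus strand, covering bases -250 to -1 relative to the annotated transcript start. Capitals mark a CCAAT box, a general promoter element found on either strand in 37.5% of 33469 promoter windows of the same source.
Reck: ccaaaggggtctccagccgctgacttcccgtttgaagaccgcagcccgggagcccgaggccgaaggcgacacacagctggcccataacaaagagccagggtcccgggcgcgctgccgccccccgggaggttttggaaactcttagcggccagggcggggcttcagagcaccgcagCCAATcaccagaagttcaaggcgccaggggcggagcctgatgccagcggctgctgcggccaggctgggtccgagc

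By the lowest p, 13 further genes were lower in SNX muscle without passing the adjusted threshold, and several act at the cell surface or in the matrix. Nid1, which encodes nidogen-1, a basement membrane protein that links laminin to collagen IV, came closest. Its levels were 10.41, 10.04, 10.56, 10.40 and 10.28 in SNX arrays, against 10.99, 11.18, 11.09 and 11.36 in sham arrays, a log2 difference of -0.82 ± 0.12 (limma, adjusted p = 0.0923). Inhba, the subunit of the ligand activin A, had levels of 5.39, 2.92, 4.92, 4.36 and 4.40 in SNX arrays, against 5.67, 6.58, 7.29 and 6.95 in sham arrays, with a difference of -2.22 ± 0.47 (adjusted p = 0.352). The SNX values were all lower for both genes, and the SNX array of rat 18 lay lowest. A second Inhba probe set, at a mean level of 4.81 against 5.75, gave -1.18 ± 0.34.

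Of these 13 genes 4 encode receptors. The growth factor receptor Egfr differed by -1.08 ± 0.20 (adjusted p = 0.278), with levels of 5.36 to 6.38 in SNX arrays and 6.68 to 7.24 in sham arrays. The lysophosphatidic acid receptor Lpar1 differed by -1.07 ± 0.21, and the sphingosine-1-phosphate receptor S1pr1, which is abundant on endothelial cells, by -0.85 ± 0.17. Antxr2, a receptor that binds collagen VI and basement membrane proteins, differed by -0.97 ± 0.20. For S1pr1 the highest SNX array, at 10.91, exceeded the lowest sham array, at 10.90, while the groups of the other 3 receptors were separate. The junction protein gene Cgnl1 (-1.16 ± 0.21), the actin-binding caldesmon gene Cald1 (-0.72 ± 0.13) and the membrane protein gene Fam171b (-1.0 ± 0.17) had adjusted p-values of 0.185 to 0.275. A second Cgnl1 probe set, at a mean level of 3.85 against 4.11, gave 0.06 ± 0.06. Fasn, RT1-Ba, Tmem176a and RT1-CE16 completed the 15 genes. In 13 of the 15, every SNX array lay below every sham array, against 2.19% of all genes, but these genes were picked by their p in the same comparison, so the count is a description.

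**Figure D1:**
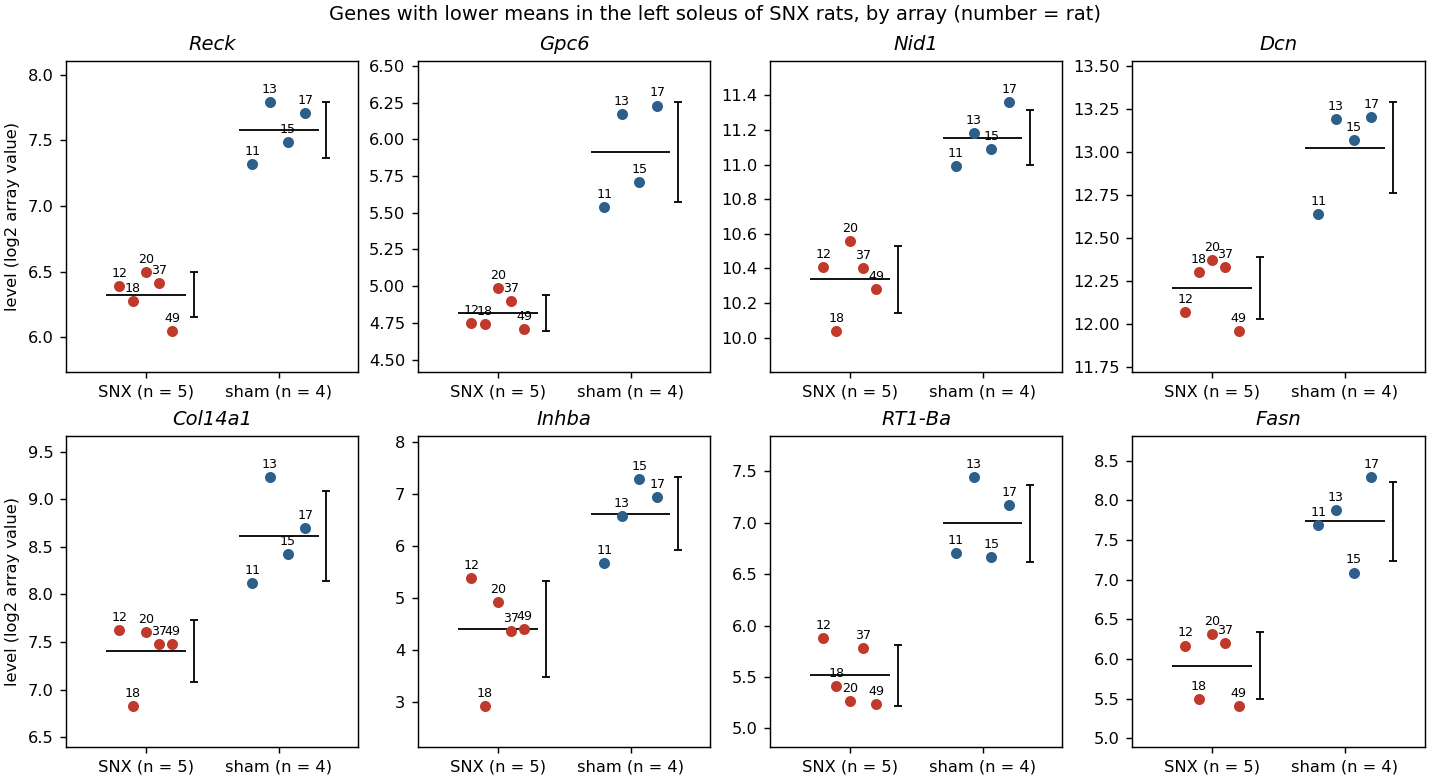
Level (log2 array value) of 8 genes in each left array, with SNX rats (red, n = 5) left of sham rats (blue, n = 4). Numbers give the rat, horizontal lines the group mean and bars the SD. In each panel all SNX points lie below all sham points, and Reck and Gpc6 are the genes that passed the adjusted test.

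Genes of the interstitial matrix had lower levels in SNX rats throughout the list. All 25 measured collagen and fibrous matrix genes (26 listed) had a log2 difference below 0, with a median of -0.90 and a range of -1.31 to -0.08. Over all genes 41.0% lay below 0 and the median was 0.01. None of the 25 passed the adjusted threshold, and 18 had an unadjusted p under 0.05 in the lower direction, a level that 4.09% of all genes reached. Col14a1, a collagen that associates with fibrils, had levels of 7.63, 6.83, 7.61, 7.48 and 7.48 in SNX arrays, against 8.12, 9.23, 8.42 and 8.70 in sham arrays. Those groups were separate, and the difference was -1.21 ± 0.29 (adjusted p = 0.352). Mmp14, the membrane-bound metalloproteinase that activates other matrix proteases and is inhibited by Reck protein, differed by -0.83 ± 0.20 (adjusted p = 0.352). The collagen VI subunit Col6a2 and the fibril-associated Col12a1 differed by -0.69 ± 0.20 and -0.97 ± 0.29.

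The main fibril collagens were less separate. Col3a1 levels were 12.23, 10.37, 12.33, 11.94 and 11.70 in SNX arrays, against 12.30, 13.08, 12.47 and 13.02 in sham arrays, with a difference of -1.0 ± 0.38 (adjusted p = 0.690). Col1a1 ran from 8.81 to 11.71 in SNX arrays and from 9.98 to 11.62 in sham arrays, so the groups overlapped fully, and its difference was -0.49 ± 0.59 (adjusted p = 0.908). The list's count rested in part on single sham arrays: it was 7 of the 25 when rat 13 was left out and 11 when rat 17 was left out, with medians of -0.73 and -0.87.

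Proteoglycans and basement membrane genes showed the same direction. Of 18 proteoglycan genes 17 lay below 0, with a median of -0.74. Unadjusted p was under 0.05 for 8 lower genes, 1 of them Gpc6, and for 1 higher gene (higher in 3.25% of all genes). Dcn, which encodes decorin, a small proteoglycan that coats collagen fibrils, had levels of 12.07, 12.30, 12.37, 12.33 and 11.96 in SNX arrays, against 12.64, 13.19, 13.07 and 13.20 in sham arrays (-0.82 ± 0.19, adjusted p = 0.352). Its relatives Lum and Aspn, lumican and asporin, differed by -1.15 ± 0.35 and -1.16 ± 0.39, with overlap between the groups. Without sham rat 13 the count of lower proteoglycan genes was 5 and the median -0.49. Of 15 basement membrane genes 14 lay below 0, with a median of -0.45 and 7 lower at p under 0.05 (4.09% of all genes). Beside Nid1 these were led by the laminin subunits Lamb1 (-0.80 ± 0.19) and Lama4 (-0.74 ± 0.22) and the collagen IV chain Col4a1 (-0.95 ± 0.26). The count was 4 when SNX rats 37 and 49 were left out.

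Markers of the cells that make matrix were lower alongside these genes. All 13 fibroblast markers lay below 0, with a median of -0.72. Of these 8 were lower at p under 0.05 (4.09% of all genes). For 6 every SNX array lay below every sham array (2.19% of all genes). Besides Dcn, the lowest p-values belonged to the matrix genes Dpt (-0.72 ± 0.18) and Mfap5 (-1.0 ± 0.27) and to the actin-severing gelsolin gene Gsn (-0.69 ± 0.21). The mean level of the 13 markers ran from 9.02 to 9.84 in SNX arrays and from 9.47 to 10.48 in sham arrays, and 1 marker lay below the array medians. SNX rat 20 had the highest mean of its group and sham rat 11 the lowest of its own, and the groups overlapped through these rats. The fibroblast list holds matrix genes already described above, among them Col1a1, Col3a1, Dcn and Lum, so it is not separate from those values. The part of fibroblast number in the matrix values was not tested.

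Whole soleus can include tendon at its ends, so tendon markers were examined. All 7 measured (10 listed) lay below 0, with a median of -0.74, but they varied widely between rats of 1 group. Tnmd, the tendon gene tenomodulin, had levels of 5.38, 7.85, 9.42, 8.67 and 8.15 in SNX arrays, against 8.15, 9.83, 9.78 and 8.71 in sham arrays (-1.23 ± 0.69, adjusted p = 0.864). Thbs4 (-1.25 ± 0.44) and Tppp3 (-1.13 ± 0.44) had p under 0.05, and Scx, the transcription factor of tendon cells, differed by -0.33 ± 0.29. The list's mean was 6.74 to 8.75 in SNX arrays and 7.77 to 9.42 in sham arrays. The median moved to -1.15 when SNX rat 20 was dropped, to -1.20 for sham rat 11 and to -0.42 for sham rat 13, and 1 gene lay above 0 without SNX rat 12. Without sham rat 13, or without SNX rats 37 and 49, no tendon gene had p under 0.05, and 1 had it without SNX rat 18 or SNX rat 49. With array weights the median was -1.24 and the count 4. The part of tendon tissue in the matrix values was not tested.

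Vessel genes had differences nearer to 0. Of 13 endothelial markers 12 lay below 0, with a median of -0.28 against -0.90 for the interstitial matrix. Only Pecam1, the junction receptor CD31, had p under 0.05, with levels of 8.55 to 8.95 in SNX arrays and 8.94 to 9.19 in sham arrays (-0.28 ± 0.11, adjusted p = 0.737). Leaving out 1 array at a time gave 3 such genes when SNX rat 20 was dropped, 4 for sham rat 11, 2 for sham rat 17, and none when SNX rat 12, 37 or 49 or sham rat 13 or 15 was dropped. There were 6 with array weights, 2 without the right arrays of sham 17 and SNX 49, and 0 with quantile normalization or without SNX rats 37 and 49. The endothelial sialomucin gene Emcn differed by -0.35 ± 0.17. Kdr, the main receptor of the growth factor VEGF, differed by -0.33 ± 0.21 and its ligand Vegfa by -0.55 ± 0.32, with adjusted p of 0.870 for both. Nos3, the nitric oxide synthase of endothelium, differed by -0.10 ± 0.36. Pericyte and smooth muscle markers had a median of -0.20. Of these 12, 3 were lower at p under 0.05 (4.09% of all genes), among them Mcam at -0.42 ± 0.16. Among 31 angiogenic factors and receptors 18 lay below 0 (41.0% of all genes) and 5 were lower at p under 0.05 (4.09%). These included the platelet-derived growth factor receptor Pdgfra, also a fibroblast gene (-0.83 ± 0.31), the ephrin receptor Ephb4 (-0.85 ± 0.26) and Notch1 (-0.59 ± 0.21).

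**Figure D2:**
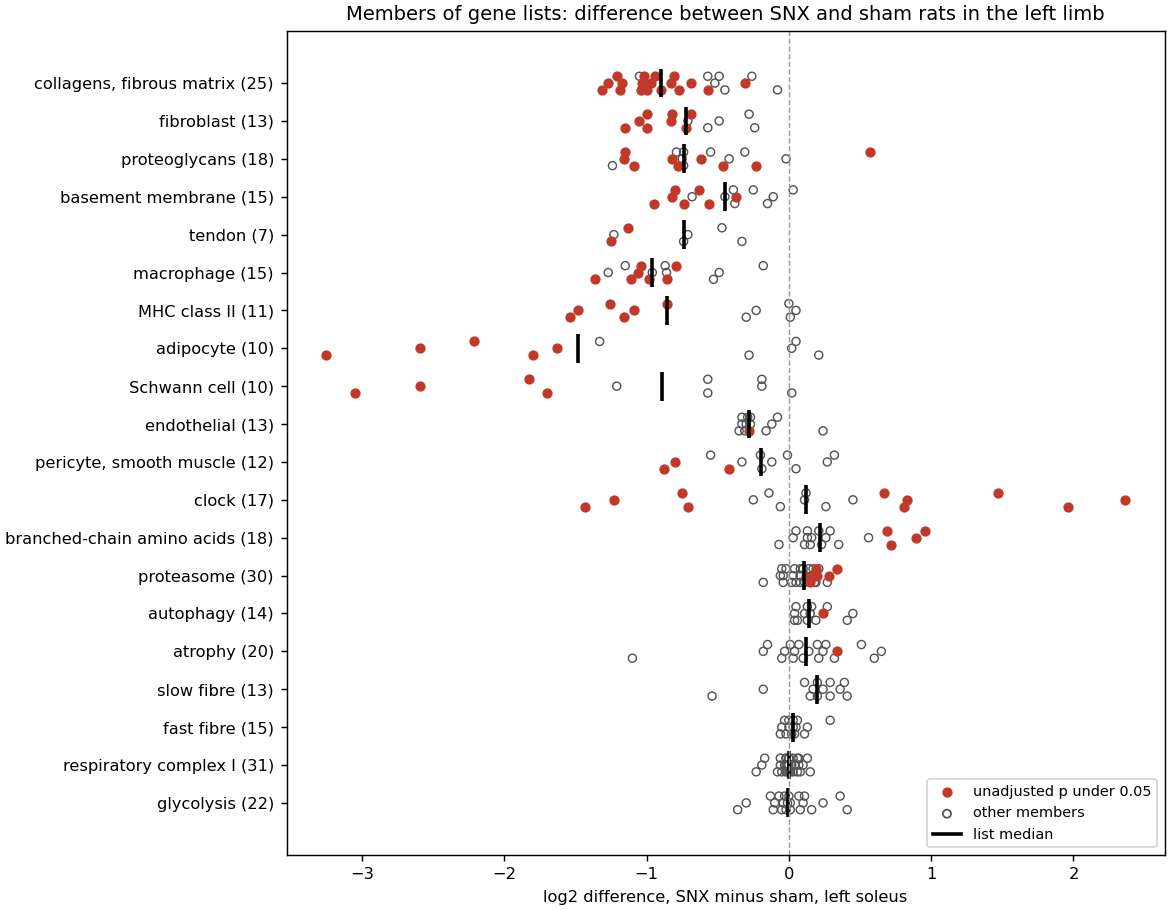
Log2 difference between SNX and sham rats in the left soleus (x axis) for each measured member of 20 gene lists, with the number of members in brackets. Each point is a gene, red where the unadjusted p was under 0.05, and the black bar is the list median. Matrix, fibroblast, macrophage, MHC class II, adipocyte and Schwann lists lie to the left. Fast-fibre, respiratory and glycolytic lists sit around 0, and the slow-fibre median is 0.20.

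Macrophage markers were lower in SNX muscle, with all 15 below 0 and a median of -0.96. Of these 7 were lower at p under 0.05 (4.09% of all genes). The complement gene C1qa, made mainly by macrophages, had levels of 7.33, 6.99, 8.0, 7.57 and 7.40 in SNX arrays, against 7.97, 9.02, 8.39 and 8.91 in sham arrays. SNX rat 20 and sham rat 11 met in the middle, and the other arrays were separate (-1.11 ± 0.29, adjusted p = 0.392). C1qc differed by -1.04 ± 0.30, and Adgre1, a surface receptor that marks macrophages in the mouse, by -0.98 ± 0.38. The mean of the list was 5.59 to 6.22 in SNX arrays and 6.25 to 7.06 in sham arrays, and these ranges did not overlap. Leaving out sham rat 13 gave a count of 4, and leaving out sham rat 17, or SNX rats 37 and 49 together, gave 3. It was 12 when 2 ligated right arrays that stood apart (sham 17 and SNX 49) were kept out of the shared estimate of spread.

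Among genes of antigen presentation by MHC class II, several separated the groups. The rat has classical class II molecules RT1-B and RT1-D, each a pair of an alpha and a beta chain, which show peptides to helper T cells. Of 11 listed genes 8 lay below 0, with a median of -0.86, and 3 lay above it, the highest at 0.05. Levels of 4 lay below the array medians. At p under 0.05, 6 of the 11 were lower (4.09% of all genes). For 6 every SNX array lay below every sham array, against 2.19% of all genes. RT1-Ba, the alpha chain of RT1-B, had levels of 5.88, 5.41, 5.27, 5.78 and 5.24 in SNX arrays, against 6.70, 7.44, 6.67 and 7.17 in sham arrays (-1.48 ± 0.30, adjusted p = 0.342). Its beta chain RT1-Bb had levels of 8.57, 8.24, 7.59, 6.82 and 7.95 in SNX arrays, against 8.95, 10, 8.96 and 9.57 in sham arrays (-1.54 ± 0.41, adjusted p = 0.423). The chains of RT1-D, RT1-Da and RT1-Db1, differed by -1.26 ± 0.31 and -1.09 ± 0.24, again with separate groups. Cd74, the invariant chain that escorts class II molecules and also a macrophage marker here, had levels of 9.39 to 10.16 in SNX arrays and 10.18 to 11.15 in sham arrays (-0.86 ± 0.27).

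Each of the 4 chains was lower by more than 1 log2 unit, and sham rats 13 and 17 had the highest levels of each. Near-identical copies and alleles of these genes may share probes, so the 4 chains may not be independent measures. Other, dim probe sets annotated to RT1-Ba and RT1-Bb had differences of -0.02 to 0.92, so values of single genes are uncertain as well. The part of shared probes and alleles in these values was not tested. The class I gene RT1-CE16 was lower as well, at 5.73 to 6.34 in SNX arrays and 6.52 to 6.84 in sham arrays (-0.71 ± 0.16, adjusted p = 0.352), as was the interferon-induced Gbp2 (-0.91 ± 0.23). The interferon list had 17 of 19 genes below 0, a median of -0.24 and 3 lower at p under 0.05 (4.09% of all genes). Cytokines, chemokines and adhesion molecules had a median of -0.01 with 1 of 28 lower at p under 0.05 (4.09% of all genes). Levels of 18 of these 28 lay below the array medians. The mean of the 28 was 3.693 to 3.772 in SNX arrays and 3.865 to 4.104 in sham arrays. All 13 lymphocyte markers lay below the array medians, with list means of 2.44 to 2.53 in SNX arrays and 2.44 to 2.50 in sham arrays. The part of macrophage number in the class II values was not tested.

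Upstream sequences of the 4 chains are printed because the genes had lower levels together and are known to be driven through a shared promoter module. One of its elements, the Y box, holds an inverted CCAAT and is bound by the factor NF-Y. Capitals mark TGATTGG, searched on both strands, which contains the reverse of a CCAAT box and occurs in 7.06% of the promoter windows. Of 9 class II list members with a window, 5 held it, the 4 chains and RT1-DMa. The sequences are from RefSeq, GRCr8, written along each gene's own strand, at chr20:4576937-4577056 (plus) for RT1-Ba, chr20:4604119-4604238 (minus) for RT1-Bb, chr20:4515295-4515414 (plus) for RT1-Da and chr20:4560182-4560301 (minus) for RT1-Db1.
RT1-Ba: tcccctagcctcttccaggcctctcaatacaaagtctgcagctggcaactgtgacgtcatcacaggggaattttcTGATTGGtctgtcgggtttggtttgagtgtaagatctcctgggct
RT1-Bb: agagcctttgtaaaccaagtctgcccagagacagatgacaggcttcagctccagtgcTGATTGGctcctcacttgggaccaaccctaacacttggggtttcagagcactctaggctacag
RT1-Da: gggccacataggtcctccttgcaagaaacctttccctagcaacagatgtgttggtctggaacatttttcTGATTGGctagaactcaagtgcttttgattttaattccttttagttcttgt
RT1-Db1: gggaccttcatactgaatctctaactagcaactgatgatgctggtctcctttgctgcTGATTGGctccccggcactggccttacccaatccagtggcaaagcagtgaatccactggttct
The match starts at position -45 in RT1-Ba, -63 in RT1-Bb, -51 in RT1-Da and -82 in RT1-Db1, counted from the transcript start. A match is a description of the letters and not evidence that a factor was bound there.

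Fat cell genes had the lowest list median, -1.48, with 7 of 10 below 0 and 5 lower at p under 0.05 (4.09% of all genes). Scd, the stearoyl-CoA desaturase that makes monounsaturated fatty acids, had levels of 3.23, 3.22, 3.30, 3.18 and 3.25 in SNX arrays, against 6.03, 7.46, 4.80 and 7.65 in sham arrays. The SNX rats were uniformly near the array medians, while the sham rats were higher and widely spread (-3.25 ± 0.79, adjusted p = 0.352). Fasn, the fatty acid synthase of the same pathway, had levels of 6.17, 5.50, 6.31, 6.20 and 5.41 in SNX arrays, against 7.69, 7.88, 7.09 and 8.29 in sham arrays (-1.82 ± 0.36, adjusted p = 0.342). A second, dimmer Fasn probe set gave -1.60 ± 0.40.

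Adipoq, the fat-cell hormone adiponectin, had levels of 3.73, 5.32, 6.30, 5.00 and 6.04 in SNX arrays, against 6.83, 8.69, 6.57 and 9.39 in sham arrays (-2.59 ± 0.95, adjusted p = 0.675). Pck1, which supplies glycerol for fat storage, differed by -2.21 ± 0.71 and the adipokine gene Cfd by -1.80 ± 0.66. Sham rats 13 and 17 stood highest for Scd, Pck1, Cfd and Adipoq. These 4 were the list members with the lowest p. Another 3 markers lay above 0, the highest at 0.21, and 2 of those had means above the array medians. The list mean ran from 4.94 to 5.35 in SNX arrays and from 5.50 to 7.39 in sham arrays. Without sham rat 17 the median was -0.79 and the count at p under 0.05 was 2. The part of fat between the fibres in the Fasn and Scd values was not tested.

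Schwann cell genes were set apart by a pair of sham rats. Of 10 measured markers (13 listed) 9 lay below 0, with a median of -0.89. In all, 4 were lower at p under 0.05 (4.09% of all genes). Levels of 5 lay below the array medians. Mbp, a main protein of myelin, had levels of 5.30, 5.95, 5.70, 5.42 and 6.09 in SNX arrays, against 10.47, 10.51, 6.85 and 5.28 in sham arrays (-2.59 ± 1.19, adjusted p = 0.779). Sham rats 11 and 13 were far above the SNX rats, and sham rat 17 lay just below the lowest of them. Pmp22, another myelin protein, was at 9.40 to 9.89 in SNX arrays against 12.36, 12.66, 10.44 and 10.23 in sham arrays, so sham rats 11 and 13 were again highest, but here the groups were separate. Mal was at 2.61 to 3.56 in SNX arrays against 6.18, 6.62, 3.31 and 3.51 in sham arrays, and sham rats 15 and 17 lay among the SNX rats. S100b, a calcium-binding protein of Schwann cells that fat cells also express, was at 3.99, 4.69, 5.74, 5.02 and 5.74 in SNX arrays against 8.85, 8.79, 6.38 and 8.31 in sham arrays (-3.05 ± 0.69, adjusted p = 0.352). The count at p under 0.05 was 2 without sham rat 11, sham rat 13, SNX rat 12 or SNX rat 49, without SNX rats 37 and 49 together or with array weights, and 8 or 9 without sham rat 15 or 17, whose arrays held low myelin levels. The median was -0.55 without sham rat 13, -1.83 over the 5 genes with means above the array medians and -2.21 over the 4 with means above 5.

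**Figure D3:**
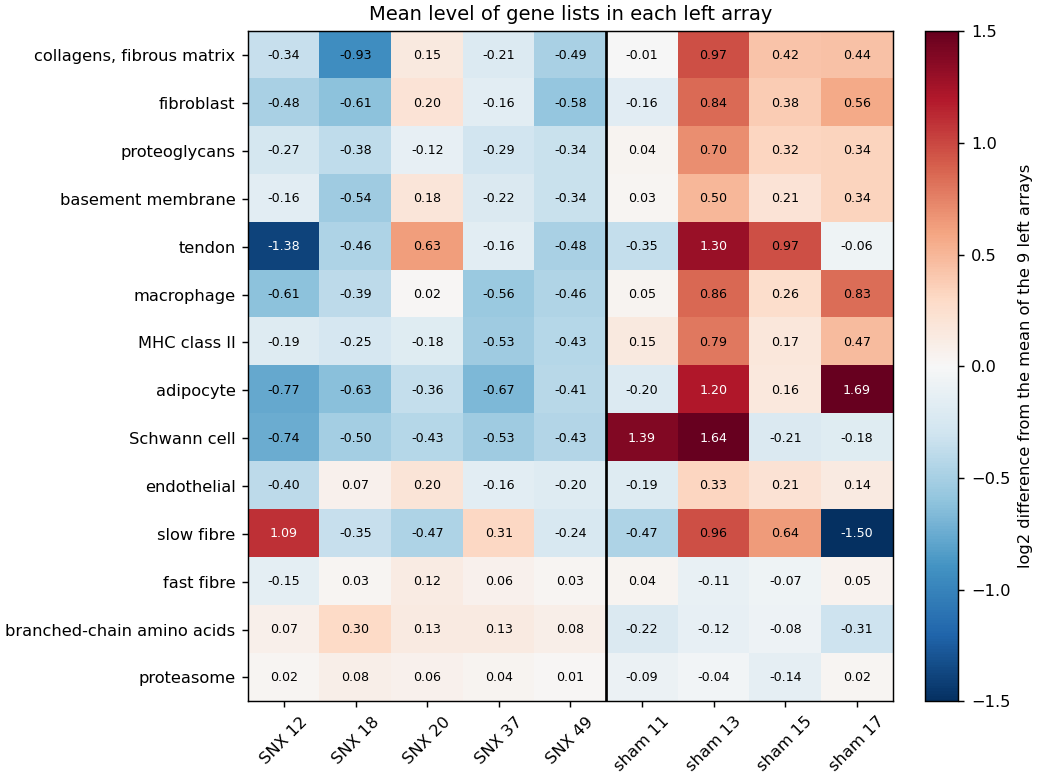
Mean level of 14 gene lists in each left array, as the log2 difference from the mean of the 9 left arrays, with SNX rats in the 5 left columns and sham rats in the 4 right columns. Red is above and blue below that mean, and the colour scale ends at 1.5 in either direction. Sham rat 13 is high in matrix, macrophage, adipocyte and Schwann lists at once, SNX rat 20 lies above the mean for matrix and tendon, and slow-fibre levels vary within both groups.

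No gene passed the adjusted test with a higher level in SNX rats, and 15 are described by their lowest p (adjusted p 0.281 to 0.362). Most of the differences were small, from 0.23 to 0.83, apart from the clock gene Nr1d1 at 1.96. Setd6, a lysine methyltransferase, had levels of 7.10, 7.22, 7.06, 7.17 and 7.25 in SNX arrays, against 6.94, 6.80, 6.84 and 6.84 in sham arrays (0.30 ± 0.06, adjusted p = 0.281). Tmem167b, a small membrane protein gene, differed by 0.61 ± 0.13, Rab40c, a Rab-like GTPase gene, by 0.68 ± 0.15, and Orc2, a subunit of the origin recognition complex, by 0.59 ± 0.13. The other genes were the ubiquitin ligase Rnf6, the Mediator subunit Med18, the nuclear receptor Nr2c1, the spindle protein Numa1, the transcription factor Nfx1, and Nr1d2, Ivd, Ggnbp2, Txlng and C10h1orf35. In 8 of the 15 all SNX arrays lay above all sham arrays, against 1.15% of all genes, though the genes were again picked by p in this comparison.

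Genes of the circadian clock differed in both directions, and 1 SNX rat lay with the sham rats. The clock turns on a loop in which BMAL1, with CLOCK or NPAS2, activates the Per, Cry and Nr1d genes, whose products repress it, and NR1D1 and NR1D2 repress Bmal1 directly. Of 17 measured genes 6 were higher and 4 lower at p under 0.05 (3.25% and 4.09% of all genes). Per3, a repressor, had levels of 3.53, 5.89, 6.27, 6.06 and 6.64 in SNX arrays 12, 18, 20, 37 and 49, against 3.34, 3.55, 3.07 and 3.31 in sham arrays (2.36 ± 0.59, adjusted p = 0.362). SNX rat 12 was within the sham range, and the other 4 SNX rats were more than 2 units above it. Nr1d1 had levels of 5.82, 7.61, 7.01, 7.74 and 8.10 in SNX arrays, against 5.62, 4.20, 4.87 and 6.49 in sham arrays, and Nr1d2 had 10.88, 11.64, 11.78, 11.83 and 11.75 in SNX arrays, against 10.58, 10.71, 10.69 and 10.99 in sham arrays. Rat 12 again lay within the sham range for both.

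In the activating arm, Bmal1 had levels of 6.49, 5.18, 4.25, 4.80 and 4.75 in SNX arrays, against 6.22, 5.90, 6.60 and 6.58 in sham arrays (-1.23 ± 0.42). Its partner Npas2 had levels of 5.74, 4.44, 4.46, 4.28 and 3.86 in SNX arrays, against 5.32, 5.18, 5.28 and 5.44 in sham arrays (-0.75 ± 0.33), so rat 12 was above every sham rat. Cry1, a repressor that peaks late in the cycle, differed by -0.71 ± 0.16 (adjusted p = 0.352). Among output genes, the transcription factors Dbp and Tef were higher (1.47 ± 0.45 and 0.67 ± 0.28) and their antagonist Nfil3 was lower, at 9.82, 7.88, 8.51, 7.35 and 7.15 in SNX arrays against 9.29, 9.79, 9.89 and 9.32 in sham arrays (-1.43 ± 0.45). Bhlhe41, another repressor, differed by 0.81 ± 0.37. Dbp, Nfil3, Bmal1, Tef, Npas2 and Bhlhe41 were chosen after their values were seen.

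SNX rat 12 lay inside the range of the sham arrays for 9 of the 10 clock genes with p under 0.05, SNX rat 20 for 1, and the other SNX rats for 0. Over all 1043 genes at that p the shares were 29.6% for rat 12 and 33.4% for rat 20. Without rat 12 the difference was 2.90 ± 0.46 for Per3 and -1.58 ± 0.35 for Bmal1, and Nr1d2, at 1.01 ± 0.13, passed the test (limma, adjusted p = 0.0442). That fit is singled out because the clock values of rat 12 stood apart, so the pass is a description. In the same fit Reck and Gpc6 did not pass (limma, adjusted p = 0.0566 for both). In the right limbs of the same rats rat 12 stood apart from the other SNX rats for some of these genes. Right Per3 was 2.58 in SNX rat 12 and 4.61 to 5.39 in the other SNX rats, against 3.23 to 3.64 in sham rats. Right Bmal1 was 6.70 in SNX rat 12 and 4.52 to 5.25 in the others, against 5.88 to 6.03 in sham rats. Right Nr1d1 was 6.27 in SNX rat 12, next to SNX rat 20 at 6.31, against 5.19 to 6.25 in sham rats. Right Dbp was 7.26 in SNX rat 12 and 7.57 to 8.95 in the others, against 7.57 to 7.80 in sham rats, so SNX rat 18 met the sham range. On the right 1 clock gene was higher and 1 lower at p under 0.05 (4.81% and 4.08% of all genes), against 6 and 4 on the left. Rat 12 is also the SNX rat whose number falls among those of the sham rats, 11 to 17, whereas the others are numbered 18 and above. The labels give neither the time of day of tissue sampling nor the meaning of the numbers, and their part in the clock values was not tested.

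**Figure D4:**
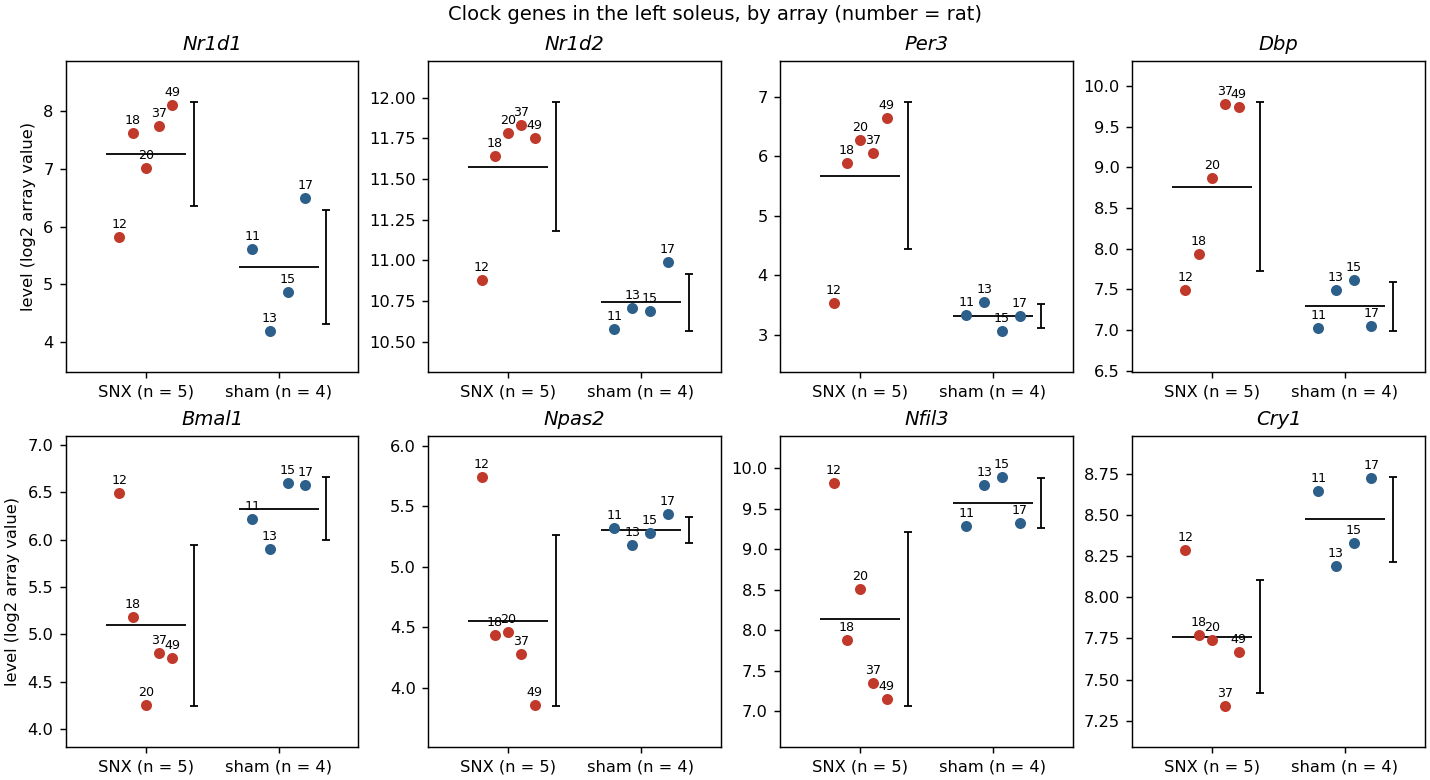
Level (log2 array value) of 8 clock genes in each left array, with SNX rats (red, n = 5) left of sham rats (blue, n = 4), rat numbers beside the points, lines at the group mean and bars for the SD. SNX rat 12 lies within or beyond the sham range in every panel, and the other SNX rats are higher for Nr1d1, Nr1d2, Per3 and Dbp and lower for Bmal1, Npas2, Nfil3 and Cry1.

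Upstream sequences of 3 clock genes are shown because they hold elements of this loop. In Bmal1 capitals mark TAGGTCA, the core of the element through which NR1D1 and NR1D2 are known to repress it, and in Nr1d1 and Tef they mark CACGTG, the E-box bound by CLOCK and BMAL1. Both strands were searched. TAGGTCA occurred in 2.63% of promoter windows and in 1 of the 15 clock genes with a window, and CACGTG in 6.42% and in 4 of the 15 (Bhlhe40, Bhlhe41, Nr1d1 and Tef). The RefSeq sequences lie in GRCr8 at chr1:176766208-176766327 (plus strand) for Bmal1, chr10:84229583-84229702 (minus) for Nr1d1 and chr7:115206577-115206696 (plus) for Tef, and the matches start at positions -16, -191 and -198 from the transcript start.
Bmal1: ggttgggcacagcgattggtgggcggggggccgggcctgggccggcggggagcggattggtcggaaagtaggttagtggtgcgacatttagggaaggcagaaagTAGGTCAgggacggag
Nr1d1: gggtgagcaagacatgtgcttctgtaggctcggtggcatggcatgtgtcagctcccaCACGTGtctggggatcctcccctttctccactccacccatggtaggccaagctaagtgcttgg
Tef: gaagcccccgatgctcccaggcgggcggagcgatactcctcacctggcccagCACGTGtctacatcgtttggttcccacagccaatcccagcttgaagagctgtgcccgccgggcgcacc
Bmal1 was lower and Nr1d1 and Tef were higher in SNX arrays other than that of rat 12.

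Enzymes of branched-chain amino acid breakdown had slightly higher levels in SNX muscle. Muscle is a main site of this pathway, in which leucine, isoleucine and valine are transaminated and then oxidised in mitochondria. Of 18 genes 17 lay above 0 (59.0% of all genes), with a median of 0.22, and 4 were higher at p under 0.05 (3.25%). Bcat2, the mitochondrial transaminase of the first step, had levels of 8.35, 9.92, 8.73, 8.83 and 9.05 in SNX arrays, against 8.06, 8.05, 7.79 and 8.16 in sham arrays (0.96 ± 0.37, adjusted p = 0.703). Ppm1k, the phosphatase that activates the branched-chain ketoacid dehydrogenase, had levels of 9.17, 10.07, 9.36, 9.22 and 9.55 in SNX arrays, against 8.62, 8.70, 8.58 and 8.45 in sham arrays (0.89 ± 0.28, adjusted p = 0.530). The dehydrogenase's core subunit Dbt differed by 0.69 ± 0.22. Ivd, which oxidises the leucine product isovaleryl-CoA, had levels of 11.12 to 11.70 in SNX arrays and 10.42 to 11.13 in sham arrays (0.72 ± 0.17, adjusted p = 0.352).

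The groups were separate for Bcat2, Ppm1k and Dbt and overlapped slightly for Ivd, and SNX rat 18 was highest for the first 3. List means were 10.24 to 10.47 in SNX arrays and 9.86 to 10.09 in sham arrays. The count at p under 0.05 was 8 without the right arrays of sham rat 17 and SNX rat 49 in the shared spread.

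Protein breakdown genes differed little. Of 30 proteasome subunits 24 lay above 0 (59.0% of all genes), with a median of 0.11, and 7 were higher at p under 0.05 (3.25%). The lid subunit Psmd14, a deubiquitinase, had levels of 11.57 to 11.69 in SNX arrays and 11.30 to 11.48 in sham arrays (0.20 ± 0.07, adjusted p = 0.633). Other Psmd14 probe sets, at mean levels of 10.21 and 4.67 against 11.58, gave 0.12 ± 0.07 and 0.03 ± 0.05. Psmd13 differed by 0.15 ± 0.05 and Psmd1 by 0.28 ± 0.10. The count varied from 3 without sham rat 15 to 10 without sham rat 17, and 4 were counted without sham rat 11 or SNX rat 18. All 14 autophagy genes lay above 0 (59.0% of all genes), with a median of 0.14. Their mean level was 10.28 to 10.44 in SNX arrays and 10.05 to 10.26 in sham arrays. Only 1 of the 14 was higher at p under 0.05 (3.25% of all genes). That was Sqstm1, the cargo receptor p62, at 11.70 to 12.05 in SNX arrays and 11.58 to 11.70 in sham arrays (0.24 ± 0.08, adjusted p = 0.584). Another Sqstm1 probe set, at a mean level of 7.18 against 11.9, gave 0.03 ± 0.28.

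Of 20 wasting genes 15 lay above 0 (59.0% of all genes), with a median of 0.12. The ubiquitin ligase Fbxo30 alone was higher at p under 0.05 (0.34 ± 0.14), a level that 3.25% of all genes reached. A second Fbxo30 probe set, at a mean level of 7.26 against 7.44, gave 0.17 ± 0.13. The ligases most used as markers of wasting did not pass. Fbxo32, or atrogin-1, had levels of 7.0, 5.97, 5.19, 6.43 and 6.20 in SNX arrays, against 5.99, 5.68, 6.20 and 5.73 in sham arrays (0.26 ± 0.37, adjusted p = 0.928). Trim63, or MuRF1, had levels of 11.03 to 12.13 in SNX arrays and 11.22 to 12.18 in sham arrays (-0.15 ± 0.29, adjusted p = 0.951). Their regulator Foxo1 differed by -0.18 ± 0.19. For each of these genes the SNX and sham ranges overlapped.

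Growth signals of the muscle were mixed. Igf1, the insulin-like growth factor, had levels of 8.94, 8.69, 9.93, 9.46 and 8.92 in SNX arrays, against 8.95, 9.81, 9.84 and 10.56 in sham arrays (-0.60 ± 0.35, adjusted p = 0.868). Other Igf1 probe sets, at mean levels of 8.54 and 8.49 against 9.54, gave -0.46 ± 0.22 and -0.71 ± 0.31. Igfbp6, which encodes a binding protein of insulin-like growth factors, was at 7.74 to 8.95 in SNX arrays and 9.06 to 10.06 in sham arrays (-1.10 ± 0.30, adjusted p = 0.425). Igfbp7 differed by -0.51 ± 0.17. The insulin receptor gene Insr was at 8.09 to 8.56 in SNX arrays and 7.66 to 8.13 in sham arrays (0.50 ± 0.14), while Irs2, an adaptor below it, was widely spread at 6.39 to 10.68 in SNX arrays and 8.42 to 10.71 in sham arrays (-1.75 ± 0.77). Myostatin, Mstn, an inhibitor of muscle growth, was dim at 2.41 to 3.23 in SNX arrays and 2.42 to 2.93 in sham arrays (0.08 ± 0.16). The activin antagonist Fst, follistatin, differed by -1.20 ± 0.33 (adjusted p = 0.425), in the same direction as the activin subunit Inhba, its relative Fstl1 by -0.79 ± 0.28, and the shared receptor Acvr2a by 0.23 ± 0.09.

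The TGF-beta list had 13 of 16 genes below 0 and a median of -0.33. At p under 0.05, 4 were lower and 1 higher (4.09% and 3.25% of all genes). Skil, a target gene whose product restrains the pathway, was at 8.84 to 9.49 in SNX arrays and 9.56 to 9.96 in sham arrays (-0.53 ± 0.12, adjusted p = 0.352). The ligand Tgfb2 was at 7.64 to 7.98 in SNX arrays and 6.95 to 7.34 in sham arrays (0.63 ± 0.17, adjusted p = 0.447), the opposite direction to the matrix genes. Both genes had separate groups, while a second Tgfb2 probe set, at a mean level of 7.05 against 7.56, gave 0.42 ± 0.29. Agtr1a, the angiotensin II receptor, differed by -0.50 ± 0.21 (adjusted p = 0.742), with SNX rat 12 lowest at 6.23. Hsd11b1, the enzyme that regenerates active glucocorticoid, differed by -1.12 ± 0.32, and the hypoxia-responsive genes Ndrg1 and P4ha1 (P4ha1 is a collagen prolyl hydroxylase subunit) by -1.16 ± 0.36 and -0.78 ± 0.24.

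Fast-fibre, respiratory and glycolytic genes were centred near 0, while slow-fibre and fatty acid genes lay slightly above it. The fatty acid uptake and oxidation list had a median of 0.22, with 20 of 25 above 0 (59.0% of all genes) and 0 at p under 0.05. The slow-fibre list had a median of 0.20, with 11 of 13 above 0, and the fast-fibre list 0.03, with no member of either at p under 0.05. Myh7 differed by 0.15 ± 0.53 and the slow troponin Tnnt1 by 0.36, with errors set by the spread between rats. Myh4 differed by 0.29 ± 0.17. The 31 measured genes of respiratory complex I had a median of -0.00 and a range of -0.23 to 0.15, those of complexes II to V a median of 0.01, and glycolysis a median of -0.00, with no member of these lists at p under 0.05. Ppargc1a, the coactivator of mitochondrial biogenesis, differed by -0.36 ± 0.41, the glucose transporter Slc2a4 by 0.16 ± 0.19, and Pdk4, which blocks pyruvate oxidation, by -0.65 ± 0.33. None of the 16 genes of wasting, growth, fibre type, glucose use, matrix and vessels picked for the study's subject passed (limma, adjusted p 0.690 to 0.983). By an exact permutation test over the 126 splits of the 9 arrays, two-sided, Col3a1 and Agtr1a had p = 0.0317, where 0.0159 is the smallest value possible, and the other 14 had p from 0.127 to 0.794, all without adjustment.

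Immediate early genes varied by rat more than by group. Nr4a3, an orphan nuclear receptor, had levels of 11.31, 3.81, 9.47, 5.79 and 6.63 in SNX arrays, against 7.47, 11.71, 11.97 and 10.82 in sham arrays (-3.09 ± 1.30, adjusted p = 0.742). Atf3, a stress-induced transcription factor, had levels of 12.19, 6.05, 9.24, 8.35 and 7.03 in SNX arrays, against 9.59, 11.29, 11.64 and 9.78 in sham arrays (-2.0 ± 0.92, adjusted p = 0.779). SNX rat 12 had the highest SNX level of both, and SNX rat 18 the lowest. The transcription factor Klf4 differed by -1.37 ± 0.57 and Ier3 by 1.07 ± 0.46. Over the list 14 of 21 lay below 0, with 3 lower and 1 higher at p under 0.05 (4.09% and 3.25% of all genes).

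The ligated right limbs of the same rats give a second set of arrays, with none of the 31042 probe sets past the adjusted threshold for SNX against sham (limma; by unadjusted p under 0.05, 684 higher and 580 lower genes, 4.81% and 4.08%). All 15 lower genes had a difference below 0 on the right, and all were smaller there, from -1.23 to -0.03. Reck was 7.42, 6.88, 6.91, 7.07 and 6.81 in SNX right arrays, against 7.0, 7.94, 7.72 and 7.67 in sham right arrays, so the groups overlapped (-0.57 ± 0.17, adjusted p = 0.498). Gpc6 was 5.17, 4.84, 5.09, 4.71 and 5.02 in SNX right arrays, against 5.02, 5.57, 5.17 and 5.45 in sham right arrays (-0.34 ± 0.15, adjusted p = 0.498). The right effect minus the left effect had an unadjusted p of 0.0131 for Reck and 0.00266 for Gpc6 and an adjusted p of 1 for both (limma). No probe set of the 31042 passed that test of the difference, and 437 had an unadjusted p under 0.05 (1.41%).

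Of the 15 higher genes 12 kept their sign on the right, and all 15 differences were smaller. The 30 genes were picked by their size and error on the left, so the smaller values on the right are a description. The collagen list had a right median of -0.37 with 23 of 25 below 0, the macrophage list -0.67 with 15 of 15, the class II list -0.66 with 10 of 11, the adipocyte list -0.99 with 8 of 10, and the Schwann list -0.19 with 7 of 10. The branched-chain list had a right median of 0.14. Over all genes 5709 of 14217 lay below 0 on the right, with a median of 0.02. Other lists were lower on the right than on the left. The endothelial median was -0.40 on the right and -0.28 on the left, with 5 and 1 of 13 lower at p under 0.05. The shares of all genes lower at that p were 4.08% on the right and 4.09% on the left. Immediate early genes had medians of -0.90 and -0.27 (9 and 3 of 21), inflammation genes -0.47 and -0.01 (10 and 1 of 28), and angiogenic genes -0.25 and -0.08 (9 and 5 of 31), right before left. Slow-fibre genes had a median of -0.50 on the right, with 13 of 13 below 0 and 0 at p under 0.05, and of 0.20 on the left. No test of these differences between limbs was made over a list. The rats are the same in both limbs, so these values are not independent of those on the left.

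**Figure D5:**
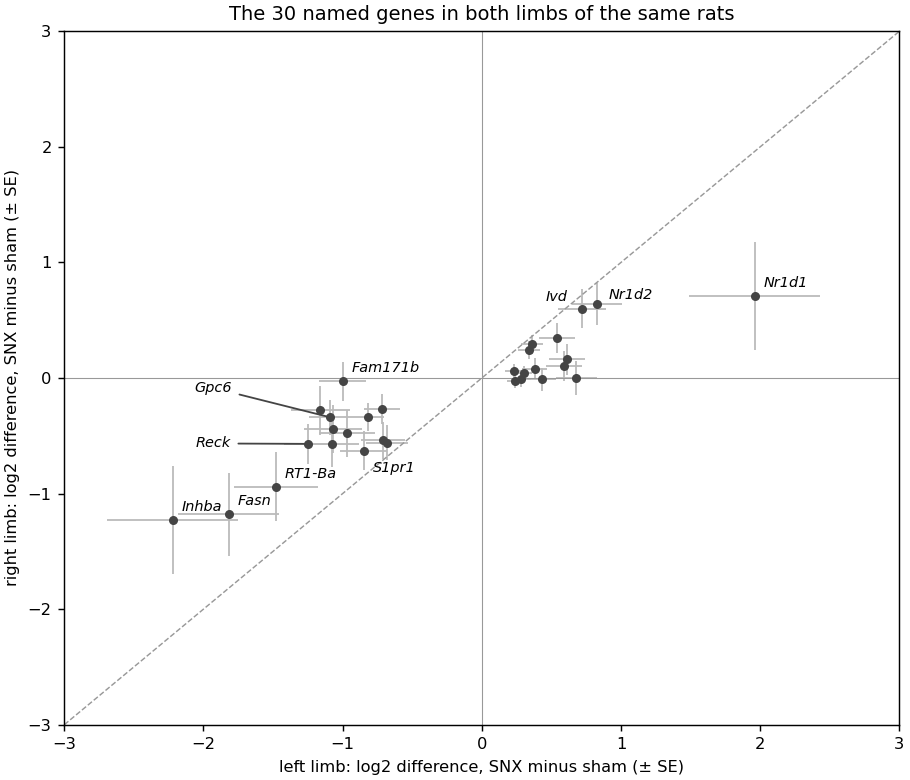
Log2 difference between SNX and sham rats in the left limb (x axis) and the right limb (y axis) for the 30 genes with the lowest p in the left limb, 15 in each direction, with SE bars. The dashed line marks equal differences. All points lie nearer to 0 on the right axis than on the left, Fam171b is at -0.03 on the right, and Nr1d2 and Ivd lie close to the line.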

How the data were processed

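The study measured soleus RNA of both hindlimbs of 9 rats on Affymetrix rat arrays, 1 array per limb, from 2 µg of total RNA labelled with biotin, per the labels' protocols. The deposited table holds log2 values of 31099 probe sets, normalized by the authors before deposit. Per the submitters' processing notes, the tools were RMA, GCRMA and Partek, but versions and the method behind the deposited values are not given there. The 2 methods treat background differently, which matters most for dim probe sets. No column of the table belonged to anything other than the 18 arrays, no pair of arrays held identical values, and arrays carry no read depth, so their number limits the precision. The median standard error of a left-limb difference was 0.118 over genes.

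After removal of 57 control probe sets, 31042 were tested with no filter on low values. Symbols came from the platform annotation, updated to RefSeq GRCr8 through the gene identifier (20758 of 20826 probe sets with 1 gene matched, 436 listed several genes and 9780 none). Where a gene had several probe sets, that of highest mean level across the 18 arrays stood for it, which left 14217 genes. One mean per operation and side was fitted with limma 3.58.1 in R 4.3.3 (lmFit and eBayes, 14 residual degrees of freedom), so the ligated right arrays share in the estimate of spread. All p-values are two-sided, and adjusted p-values are limma's after Benjamini-Hochberg adjustment over all 31042 probe sets, called at 0.05. The code was tested on simulated data with known changes. The left and right arrays of a rat come from 1 animal, and in 7 of 9 rats their deviations from the means of their groups had a correlation above 0.1. SNX and sham left arrays come from different rats and are not paired. Nothing in the labels says how the rats were housed or batched, so the p-values take no account of either. They rest on the spread within the 4 groups, with the 18 arrays fitted as independent. That pooled spread is not the spread between left limbs alone. The fit of the 9 left arrays used the latter, with 7 residual degrees of freedom, and called 0 probe sets.

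The members, the 46 gene lists and the rule for named genes were chosen with earlier results of these data known. The rule names the 15 genes with the lowest p in each direction where fewer pass, every list member past the threshold, up to 4 list members with the lowest p, and 16 fixed genes. Antxr2, entered by mistake in a list of creatine and polyamine genes, was taken out of that list after its values were seen. Counts at an unadjusted p under 0.05 describe a list beside the share of all genes and are not a test of it. Promoter windows were matched by symbol to the RefSeq table, which held none for Gpc6, Cry1, Fasn or Ppm1k.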

Additional observations from a re-analysis of the deposited data

Results flagged for a closer look

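In groups of 4 or 5 arrays, 1 array can stand apart from its group by Dixon's criterion, which chance meets in about 1 group in 20. Of 264 groups checked, 11 held such an array, 4 of them that of SNX rat 12.

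SNX rat 12 lay at 10.88 for Nr1d2 (other SNX arrays 11.64 to 11.83), at 3.53 for Per3 (others 5.89 to 6.64), at 7.67 for Tef (others 8.59 to 8.89) and at 6.23 for Agtr1a (others 6.77 to 6.84). The first 3 are clock genes. SNX rat 18 lay at 6.83 for Col14a1 (others 7.48 to 7.63), at 5.81 for Foxo1 (others 4.94 to 5.07), and at a mean of 10.47 for the branched-chain amino acid list (others 10.24 to 10.30). SNX rat 49 lay at 6.24 for C10h1orf35 (others 6.39 to 6.43). Among sham rats, rat 11 lay at 6.52 for RT1-CE16 (others 6.82 to 6.84) and at 12.84 for Pdk4 (others 14.36 to 14.61), and rat 13 lay at 5.06 for Orc2 (others 5.33 to 5.36).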

How the results depend on the processing

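The 2 calls of the left comparison depended on the processing. The count of probe sets was 0 with the left arrays alone, with arrays centred on their medians, with quantile normalization and without SNX rats 37 and 49. It was 60 with array weights (18 higher and 42 lower) and 8 without the right arrays of sham 17 and SNX 49, where the difference between limbs gave 1. Leaving out 1 left array at a time gave 0 to 5. With the rat as a random block (replicate block) the count remained 2, with an adjusted p of 0.0230 for Reck and Gpc6, and the block changed no other call. Over all alternatives the adjusted p of both ran from 0.0114 to 0.341. Without SNX rat 12, 2 other genes, Nr1d2 and Lrrn2, passed. Genes near 0 changed sign. Mstn was -0.10 without SNX rats 37 and 49, and -0.05 to 0.20 when 1 array was left out. With array weights Myh7 was -0.14 and Tnnt1 -0.17, and with 1 array left out they ran from -0.25 to 0.41 and from -0.29 to 0.83, Nos3 from -0.36 to 0.19. The cause was not tested. The other named genes kept their direction under each alternative in which they were tested (dim genes drop out of the filters on mean level). Of 78 further probe sets of named genes 58 had the sign of the one used and none passed.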
